A study of Mus musculus with 6 samples.

Results

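The 10 genes described here encode secreted growth factors, matrix proteins and a co-receptor, and their RNA was measured in macrophages sorted from mouse tumours. They were chosen by symbol, 10 of the 21878 genes in the table: the growth factors Tgfb1, Pdgfb, Igf1, Hbegf and Areg, the cytokine Osm, the matrix proteins Fn1, Thbs1 and Tgfbi, and the receptor Nrp1. All 10 had enough reads to be tested. The KO group, 3 libraries, was from mice with floxed Trmt61a (Trmt61a f/f) and LysmCre, a Cre that is active in myeloid cells in general, neutrophils included. The WT group, also 3 libraries, was from Trmt61a f/f mice for which no Cre is listed, so both groups carry the floxed alleles and differ by the Cre as well as by the deletion. Every mouse bore an MC38 tumour, a colon carcinoma line, injected 14 days before the macrophages were sorted. The age and sex of the mice, the gate, and whether each library came from 1 mouse or a pool are not stated in the labels, so p-values measure the spread between libraries, which may be technical.

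Macrophages in a tumour are a source of signals that act on their neighbours. Transforming growth factor beta is released in a latent complex, is freed by integrins and by thrombospondin, and acts through a pair of kinase receptors and SMAD proteins. Ligands of the epidermal growth factor family are made as membrane proteins and cut loose by ADAM proteases. Platelet-derived growth factor and insulin-like growth factor act on stromal and tumour cells, oncostatin M acts through gp130, and fibronectin, thrombospondin and the TGF-beta-induced protein bind integrins in the matrix. The deleted gene, Trmt61a, makes the active subunit of a tRNA methyltransferase that writes m1A. The study asks how its loss changes tumour macrophages, and RNA levels alone do not measure how much of each protein is made.

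Sequencing depth was 18839026 to 20313597 counts per library. The 10 genes together took 2.65% to 3.57% of all reads in a library. Trmt61a was at 8.01, 6.95 and 7.38 CPM (counts per 1e6 counts of the TMM-scaled library) in WT and at 2.13, 1.73 and 2.46 CPM in KO, so each library followed its label. Macrophage markers summed to 12160 to 14755 CPM over the 6 libraries, led by Apoe and C1qb. For 3 of these 10 markers (C1qa, C1qb and C1qc) every KO library was below every WT library, as for 764 of all 12136 tested genes. Of 10 epithelial markers 9 were under 1 CPM, and Cdh1 was the exception at 115 ± 33.96 CPM in WT against 121 ± 11.7 CPM in KO (SD, n = 3). Of 10 mast cell and basophil markers 8 were under 1 CPM, and of 10 endothelial markers 7 were. The largest endothelial marker, Pecam1, was at 53.9 ± 6.83 CPM in WT against 63.1 ± 9.07 CPM in KO. For 4 of the 10 (Tie1, Cldn5, Esam and Robo4), each under 1 CPM, every KO library was below every WT library, and for none was every KO library above.

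Upstream sequence could be read for 5 of the 10 genes in the RefSeq promoter table on GRCm38. It is shown for the pair of growth factors whose window lies wholly before the annotated start of the gene, because they differ in the elements it holds: the inducible ligand Areg and the broadly made ligand Tgfb1. The Areg window is chr5:91139349-91139598 and the Tgfb1 window is chr7:25686752-25687001, both on the plus strand and ending at the base before the RefSeq start. Capitals mark matches, on either strand, to the cAMP response element TGACGTCA, the GC box GGGCGG and the TATA element TATAAA.
Areg: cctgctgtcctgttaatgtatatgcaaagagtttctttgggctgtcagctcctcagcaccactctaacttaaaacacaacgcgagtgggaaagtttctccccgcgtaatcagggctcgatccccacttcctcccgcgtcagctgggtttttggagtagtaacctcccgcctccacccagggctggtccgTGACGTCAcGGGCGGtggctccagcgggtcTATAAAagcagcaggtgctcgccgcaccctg
Tgfb1: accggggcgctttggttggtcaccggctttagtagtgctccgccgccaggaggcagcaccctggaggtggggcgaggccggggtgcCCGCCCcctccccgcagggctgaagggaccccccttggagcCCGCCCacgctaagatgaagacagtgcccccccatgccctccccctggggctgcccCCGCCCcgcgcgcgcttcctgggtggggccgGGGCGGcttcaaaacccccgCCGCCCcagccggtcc

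The Areg window held 1 cAMP response element at -61 to -54, counted from the RefSeq start, with a GC box at -52 to -47 and a TATA element at -31 to -26. None of these overlapped. The Tgfb1 window held 5 GC boxes and neither of the other motifs, and its GC content was 75.2% against 57.2% for Areg. Over the 32851 windows of 250 bases in the table the median GC content was 52.4%, and 1.55% held the cAMP response element, 32.7% a GC box and 12.4% the TATA element. The AP-1 motif TGANTCA, present in 6.75% of all windows, matched neither of these sequences. These are descriptions of letters in a window and say nothing of which factor was bound in these cells.

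None of the 10 genes passed the test of KO against WT, with edgeR at an adjusted p under 0.05 over all genes, where 2 of 12136 genes (0.0165%) passed. In bulk RNA, fewer cells of a type and less RNA per cell cannot be told apart. DESeq2 called 0 of the 10 as well, where it called 29 of 11430 genes (0.254%). At an unadjusted p under 0.05 there were 3 of the 10, Osm and Thbs1 with a positive and Pdgfb with a negative log2 fold change, where 6.92% of all tested genes had such a p. The 3 KO values lay on one side of the 3 WT values for 2 of the 10, Tgfb1 and Osm, against 12.4% of all tested genes. Fold changes ran from 0.797 for Igf1 to 1.20 for Osm. Log2 values were positive for 7 and negative for 3, with a median of 0.064 against -0.00088 over all tested genes.

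**Figure D1:**
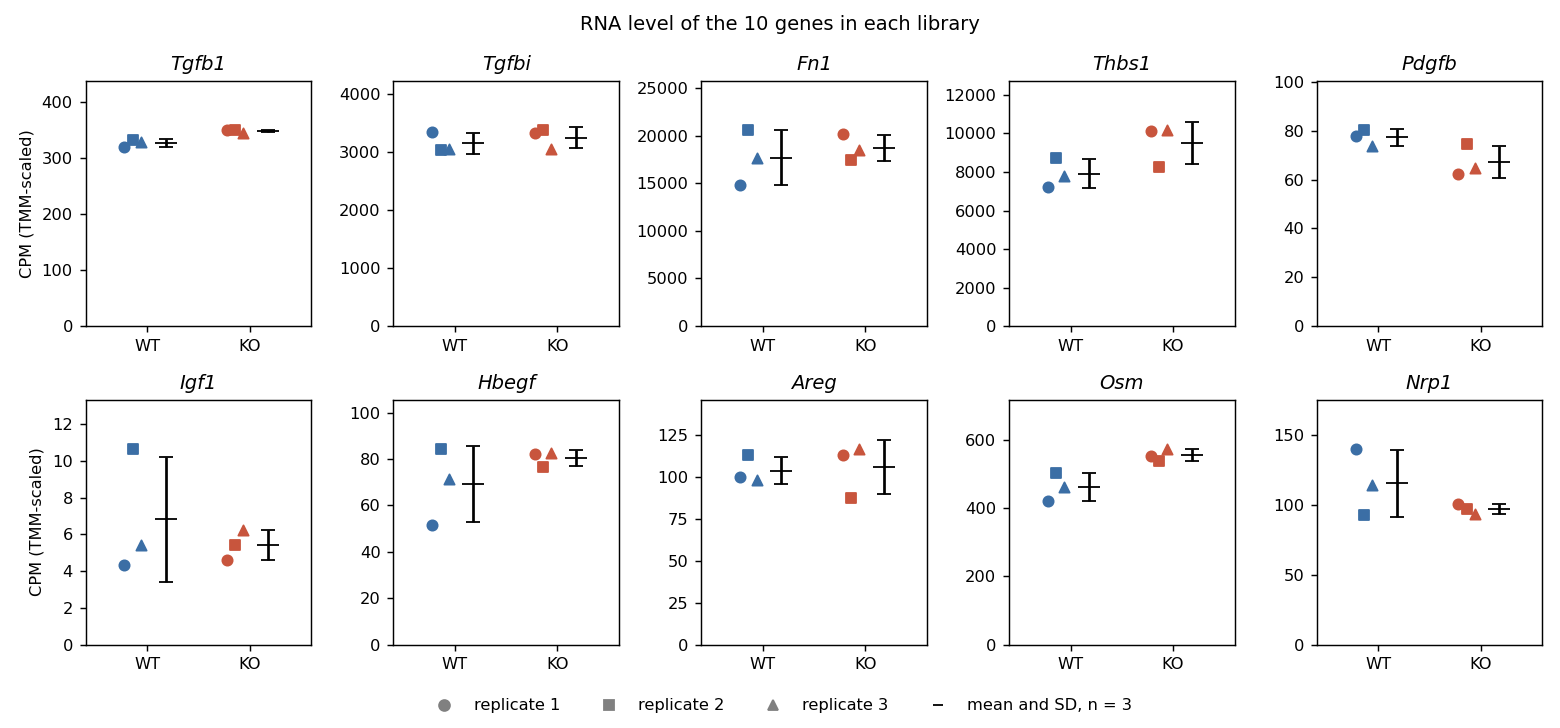
RNA level of each of the 10 genes in CPM (vertical axes, from 0) in the 3 WT and 3 KO libraries, with the marker shape giving the replicate number and bars giving mean and SD. Only Tgfb1 and Osm have KO points that are all above the WT points; the other 8 genes overlap between the groups.

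Among the ligands, Tgfb1 (NCBI Gene 21803, chromosome 7, 25687002 to 25705077, plus strand, GRCm38) encodes transforming growth factor beta 1, which restrains T cells and drives fibroblasts to make matrix. Its RNA was at 318.8, 332 and 329 CPM in the WT libraries and at 349.95, 349.5 and 345 CPM in the KO libraries. Every KO library was above every WT library, and the libraries of each group lay within a few percent of each other (coefficient of variation 2.14% in WT and 0.749% in KO). The difference was small, 1.07-fold with a 95% interval of 0.966 to 1.177, and missed the threshold (log2 0.09, SE 0.064, edgeR adjusted p = 0.785).

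Osm (Gene 18413, chromosome 11, 4236420 to 4241026, plus strand) encodes oncostatin M, a cytokine of the interleukin 6 family made by activated myeloid cells. It was at 423, 504 and 462 CPM in WT against 556, 541 and 576 CPM in KO, again with no overlap. It had the smallest p of the 10 genes, rank 125 of all 12136 (1.20-fold, interval 1.06 to 1.36; log2 0.27, SE 0.081), and missed the threshold (edgeR adjusted p = 0.701). The smallest adjusted p of any of the 10 genes in any of 16 alternatives was also that of Osm, 0.277 with DESeq2.

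Pdgfb (Gene 18591, chromosome 15, 79995874 to 80014977, minus strand) encodes the B chain of platelet-derived growth factor, which recruits pericytes and fibroblasts. It was at 77.8, 80.3 and 73.7 CPM in WT against 62.3, 74.6 and 64.8 CPM in KO. KO replicates 1 and 3 were below all WT libraries and KO replicate 2 was within the WT range (0.870-fold, interval 0.764 to 0.991; log2 -0.20, SE 0.084, edgeR adjusted p = 0.713).

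Hbegf and Areg encode heparin-binding EGF-like growth factor and amphiregulin, ligands of the EGF receptor. Hbegf (Gene 15200, chromosome 18, 36504927 to 36515805, minus strand) was at 51.7, 84.6 and 71.6 CPM in WT against 82.1, 76.4 and 82.6 CPM in KO. WT replicate 1 was the low library and WT replicate 2 was above all KO libraries, so the groups overlapped (log2 0.21, SE 0.16, edgeR adjusted p = 0.795). Without WT replicate 1 the log2 value was 0.044, and without WT replicate 2 it was 0.39.

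Areg (Gene 11839, chromosome 5, 91139599 to 91148432, plus strand) was at 99.8, 113 and 98.4 CPM in WT against 113, 87.5 and 117 CPM in KO. The group means were close, 104 ± 8.001 and 106 ± 16.1 CPM (SD, n = 3), and the interval of the fold change ran from 0.857 to 1.22. KO replicate 2 was the lowest of the 6 libraries and KO replicate 3 the highest, and the log2 value of 0.03 (SE 0.11, edgeR adjusted p = 0.958) turned negative, to -0.0071, -0.021 and -0.044, without WT replicate 3, KO replicate 1 and KO replicate 3 in turn.

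Igf1 (Gene 16000, chromosome 10, 87858265 to 87937042, plus strand) encodes insulin-like growth factor 1, a survival and growth signal. It had 85, 212 and 109 counts in WT and 89, 103 and 127 counts in KO, or 4.34, 10.7 and 5.43 CPM against 4.62, 5.41 and 6.26 CPM. WT replicate 2 held more counts than the other WT libraries together. The log2 value was -0.33 (SE 0.32, edgeR adjusted p = 0.843) with all libraries and 0.16 without WT replicate 2, and its interval of 0.481 to 1.32 as a fold was the widest of the 10.

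The matrix genes took a large part of the reads. Fn1 (Gene 14268, chromosome 1, 71585520 to 71653200, minus strand) encodes fibronectin and took 1.82% of all reads on average. Thbs1 (Gene 21825, chromosome 2, 118111876 to 118127133, plus strand) encodes thrombospondin 1, an adhesive glycoprotein that inhibits blood vessel growth and activates latent TGF-beta, and took 0.872%. Tgfbi (Gene 21810, chromosome 13, 56609523 to 56639562, plus strand) encodes the TGF-beta-induced protein, an integrin ligand, and took 0.320%. Shares of reads favour long transcripts, and levels per length are given after the single genes.

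Fn1 was at 14822, 20578 and 17606 CPM in WT against 20188, 17395 and 18520 CPM in KO, and the WT libraries spanned the whole KO range (log2 0.08, SE 0.12, edgeR adjusted p = 0.891). Without WT replicate 1, its lowest library, the log2 value was -0.027. Thbs1 was at 7237, 8738 and 7781 CPM in WT against 10110, 8252 and 10180 CPM in KO. KO replicates 1 and 3 were above all WT libraries, while KO replicate 2 was below WT replicate 2. The Thbs1 difference was 1.20-fold with an interval of 1.02 to 1.42 (log2 0.26, SE 0.11) and missed the threshold (edgeR adjusted p = 0.713).

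Tgfbi was at 3353, 3037 and 3056 CPM in WT against 3324, 3379 and 3044 CPM in KO, which places libraries of both groups at each end of the range. Its fold change was 1.03 with an interval of 0.910 to 1.17 (log2 0.05, SE 0.081, edgeR adjusted p = 0.910), and the log2 value ran from 0.016 to 0.094 with 1 library left out. In GENCODE M21, exons on the opposite strand overlap Fn1 (Apol7d) and Thbs1 (Gm29233). Neither of those genes has a row in the table, and no source used here states whether counting used the strand.

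Nrp1 (Gene 18186, chromosome 8, 128358604 to 128503363, plus strand) encodes neuropilin 1, a co-receptor for VEGF and class 3 semaphorins that also binds TGF-beta. It was at 140.3, 92.4 and 114 CPM in WT against 100.3, 97.1 and 93.5 CPM in KO. The KO libraries were close together inside the wide WT range (coefficient of variation 3.51% in KO and 20.8% in WT). The log2 value was -0.25 (SE 0.13, edgeR adjusted p = 0.729), -0.088 without WT replicate 1 and -0.38 without WT replicate 2.

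**Figure D2:**
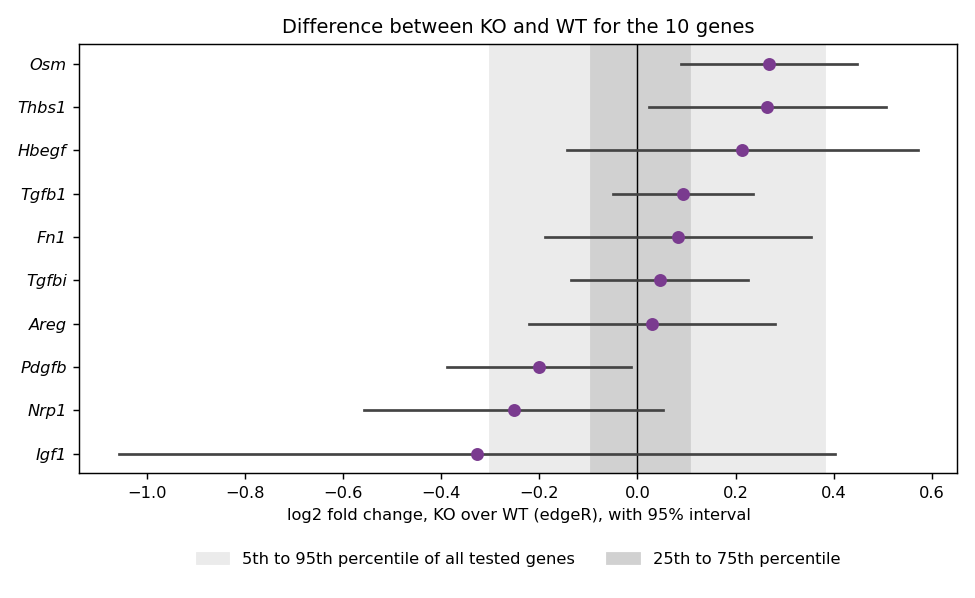
Log2 fold change of KO over WT (horizontal axis) for each of the 10 genes with its 95% interval from edgeR, over bands that give the 25th to 75th and 5th to 95th percentiles of all tested genes. The intervals of Osm, Thbs1 and Pdgfb do not reach 0, and that of Igf1 is the widest.

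Divided by the length of the merged exons in GENCODE M21, the WT levels of the 10 genes ran from 0.688 to 1512 CPM per kb. Fn1 was at 1512 ± 246 CPM per kb in WT and Thbs1 at 1304 ± 125 CPM per kb (SD, n = 3), and their WT ranges overlapped, 1268 to 1761 against 1192 to 1439. Tgfbi followed at 835 ± 47.05 CPM per kb, below every Thbs1 library. Then came Osm at 204 ± 17.9, Areg at 85.4 ± 6.59 and Tgfb1 at 64.8 ± 1.38 CPM per kb, with no overlap between neighbours in WT. In KO, Osm was at 245.5 ± 7.79 CPM per kb and Areg at 87.1 ± 13.2 CPM per kb.

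The lower end of the order held Pdgfb at 18.6 ± 0.808, Hbegf at 14.3 ± 3.43 and Nrp1 at 11.8 ± 2.45 CPM per kb in WT, with Igf1 last at 0.688 ± 0.343 CPM per kb. Hbegf and Nrp1 overlapped in WT, and Pdgfb and Hbegf overlapped in KO, where they were at 16.2 ± 1.56 and 16.6 ± 0.710 CPM per kb. Pdgfb and Hbegf were the pair whose order of means differed between WT and KO. Merged exons count every annotated transcript, so the length-scaled level of a gene with several long forms, such as Igf1 at 9.90 kb, may be an underestimate.

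**Figure D3:**
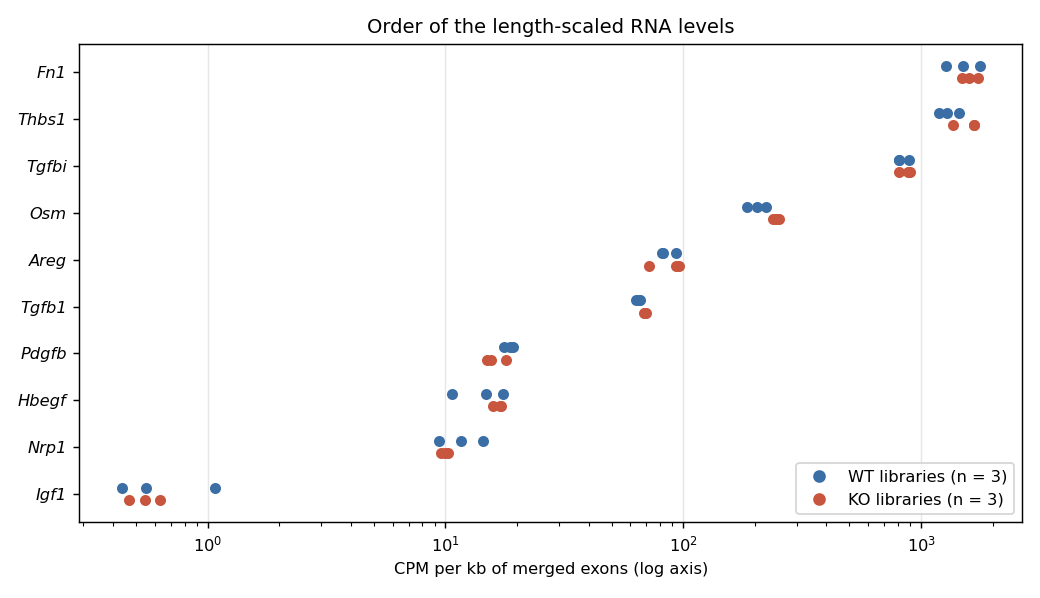
Length-scaled RNA level (CPM per kb of merged exons, log axis) of the 10 genes in each WT and KO library, ordered by the WT mean. The matrix genes Fn1, Thbs1 and Tgfbi are at the top, from 805 to 1761 CPM per kb, and Igf1 is at the bottom.

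Single libraries stood at the end of the range for several genes. WT replicate 1 was the lowest of the 6 libraries for 6 of the 10 genes (Tgfb1, Fn1, Thbs1, Igf1, Hbegf and Osm) and the highest for Nrp1. WT replicate 2 was the highest for 4 (Fn1, Pdgfb, Igf1 and Hbegf) and the lowest for Tgfbi and Nrp1. As a description over 6 libraries of both genotypes, log2 CPM correlated at r = 0.946 for Tgfb1 with Osm, 0.926 for Fn1 with Hbegf, 0.901 for Thbs1 with Osm and 0.846 for Hbegf with Osm. Nrp1 ran opposite to Hbegf (r = -0.967), Osm (-0.877) and Fn1 (-0.847), and Pdgfb opposite to Thbs1 (-0.801).

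KO replicate 2 differed from the other KO libraries in Thbs1, Pdgfb and Areg, where it was closer to the WT mean or, for Areg, below it. Without KO replicate 2 the log2 values were 0.36 for Thbs1, -0.28 for Pdgfb and 0.15 for Areg.

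**Figure D4:**
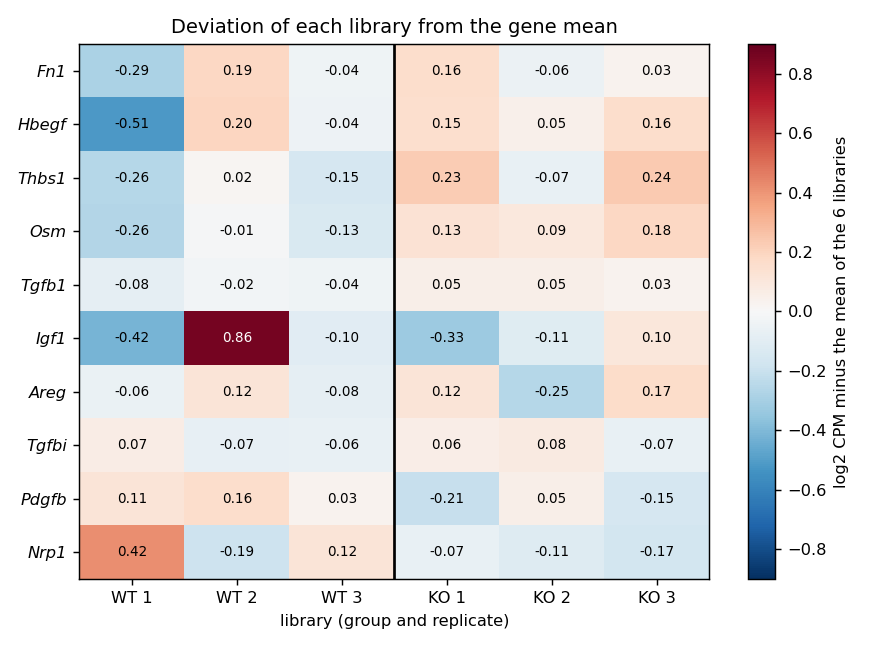
Log2 CPM of each gene minus its mean over the 6 libraries (colour and printed number), with libraries in columns and the 10 genes in rows. WT replicate 1 is low for Fn1, Hbegf, Thbs1, Osm and Igf1 and high for Nrp1, and the value of 0.86 for Igf1 is WT replicate 2.

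Summed levels of marker genes were compared between the same libraries. T, NK and innate lymphoid markers summed to 169, 201 and 208 CPM in WT against 203, 264 and 218 CPM in KO (exact permutation p = 0.2). Il7r was the largest, and 10 of the 11 at 1 CPM or more had the higher mean in KO. Monocyte sums averaged 1395.5 ± 116 CPM in WT against 1309.7 ± 51.1 CPM in KO, and dendritic cell sums 28.1 ± 7.24 against 33.5 ± 12.9 CPM. The part of these lists in the values of the 10 genes was not tested. Immediate early and dissociation genes, which are induced within minutes by handling and by growth signals, summed to 14050, 17535 and 15613 CPM in WT against 17216, 19652 and 18127 CPM in KO, and all 22 were above 1 CPM. The sums overlapped, since WT replicate 2 was above KO replicate 1, but 20 of the 22 genes had the higher mean in KO. For 8 of the 22 (Fos, Jun, Egr1, Nr4a1, Klf2, Hspa1a, Hspa1b and Btg2) every KO library was above every WT library, and for none was every KO library below. Over all 12136 tested genes, every KO library was above every WT library for 741 and below for 764. Jun was at 389.8, 535 and 459 CPM in WT against 612, 602 and 601 CPM in KO. The gene with the most reads in this list, Hspa8, averaged 2531 ± 132 CPM in WT and 2466 ± 237 CPM in KO. WT replicate 1, the library with the lowest Hbegf, Osm and Thbs1, also had the lowest sum (exact permutation p = 0.2 between groups, two-sided). KO replicate 2 had the highest sum but the lowest KO levels of Hbegf, Osm and Thbs1. The part of the immediate early and dissociation genes in the values of Tgfb1, Hbegf, Osm and Thbs1 was not tested. Neutrophil markers summed to 85.6 to 120 CPM in WT against 133 to 182 CPM in KO (exact permutation p = 0.1, the smallest that 3 libraries against 3 allow), with 6 of 12 under 1 CPM. The largest were Mmp9, at 39.5 ± 8.48 CPM in WT against 78.9 ± 41.1 CPM in KO, and Csf3r, at 41.2 ± 8.75 and 43.4 ± 14.8 CPM. Most of the difference between the sums was thus in Mmp9, though 5 of the 6 markers at 1 CPM or more had the higher mean in KO. The groups overlapped for Mmp9, with KO replicate 2 at 46.82 CPM and WT replicate 1 at 47.66 CPM. For 2 of the 12 (Mmp8 and Ltf) every KO library was above every WT library, and for none was every KO library below. Mmp8 was at 8.062, 14.21 and 11.02 CPM in WT against 14.96, 15.43 and 18.38 CPM in KO. Ltf averaged under 1 CPM in both groups. The neutrophil marker Ly6g had no count in WT or in KO replicates 1 and 2, and was at 0.148 CPM in KO replicate 3. The part of the neutrophil markers in the values of Tgfb1 and Osm, whose groups did not overlap either, was not tested.

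Platelets also carry transforming growth factor beta, platelet-derived growth factor and thrombospondin. Their markers summed to 331, 336 and 267 CPM in WT against 594, 338 and 407 CPM in KO, without overlap (exact permutation p = 0.1). Nearly all of that was Pf4, at 300.2 ± 36.9 CPM in WT against 424.5 ± 122 CPM in KO. All 4 markers at 1 CPM or more had the higher mean in KO. Ppbp was at 11.0, 6.65 and 6.38 CPM in WT against 28.9, 6.09 and 17.2 CPM in KO. KO replicates 1 and 3, its high libraries, were the high libraries of Thbs1 but the low libraries of Pdgfb. Itga2b averaged 1.11 ± 0.218 and 1.73 ± 0.462 CPM, and Treml1 1.73 ± 0.135 and 2.38 ± 1.08 CPM. Neither shared the order of Ppbp in KO, with Itga2b at 1.30, 1.68 and 2.22 CPM and Treml1 at 2.91, 3.10 and 1.13 CPM. The other 6 markers were under 1 CPM: Gp9 had 0 counts in all 6 libraries, and Gp1ba, Gp6 and Tubb1 averaged under 0.1 CPM in both groups. The part of platelet RNA in the values of Thbs1, Tgfb1 and Pdgfb was not tested. Fibroblasts also make fibronectin and thrombospondin 1, and fibroblast and mesenchymal markers summed to 275, 422 and 301 CPM in WT against 277, 317 and 383 CPM in KO (exact permutation p = 1.0). Col3a1 and Col1a2 were the largest and 2 of 12 were under 1 CPM. WT replicate 1 had the lowest and WT replicate 2 the highest sum, as for Fn1. In KO the orders differed, since KO replicate 1 had the lowest KO sum and the highest KO level of Fn1. The part of the fibroblast and mesenchymal markers in the Fn1 values was not tested.

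The pathways of these genes were read from 10 lists, 182 genes in all with the 10 genes included, of which 159 were tested. None of the 159 passed with edgeR, DESeq2 called 1 of 151 (Cx3cr1, lower in KO), and in edgeR 18 of them (11.3%) had an unadjusted p under 0.05, 7 with a positive and 11 with a negative log2 value, against 6.92% of all tested genes. Of the 159, 18 did not overlap between the groups, which is 11.3% against 12.4% of all tested genes. Positive log2 values were 44.0% of the 159 and 49.8% of all tested genes. The medians of the 10 lists lay between -0.10 and 0.05. Because the lists were chosen with earlier results of these data known, their shares are descriptions.

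For TGF-beta, 13 of 16 genes of ligands, latency and activation were tested, 5 with positive and 8 with negative log2 values (median -0.029). Of the other isoforms, Tgfb3 was at 111 ± 15.7 CPM in WT against 119 ± 17.6 CPM in KO and Tgfb2 had 16 counts over all 6 libraries. The genes besides the 10 with the smallest p were Furin, the protease that cleaves the TGF-beta precursor (log2 0.20, SE 0.10), and Nrros, which tethers latent TGF-beta on myeloid cells (log2 -0.18, SE 0.098). The integrin subunits Itgb6 and Itgb8, activators of latent TGF-beta, had 0 and 51 counts in all.

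All 21 genes of TGF-beta receptors, SMADs and feedback were tested, 7 positive and 14 negative (median -0.041). The receptors Tgfbr1 and Tgfbr2 were at 109.7 ± 10.3 and 188 ± 12.9 CPM in WT against 106 ± 9.68 and 165 ± 7.66 CPM in KO (SD, n = 3). The feedback regulators Skil and Smad7 had the smallest p values, with log2 values of opposite sign. Skil, a repressor of SMAD signalling, was at 422 ± 51.7 CPM in WT against 323 ± 49.4 CPM in KO (log2 -0.38, SE 0.12), and Smad7, the inhibitory SMAD, was at 71.0 ± 9.99 and 91.1 ± 14.8 CPM (log2 0.36, SE 0.14). Their edgeR adjusted p values were 0.701 and 0.707.

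Of 18 TGF-beta target genes, which include Fn1, Thbs1, Tgfbi and Pdgfb, 17 were tested, 9 positive and 8 negative (median 0.045). An unadjusted p under 0.05 was found for 6 of the 17 (35.3%), against 6.92% of all tested genes. Log2 values were positive for 2 of the 6 (Thbs1 and Smad7) and negative for 4 (Cx3cr1, Skil, Id3 and Pdgfb). Thbs1 and Pdgfb were already described singly above, and Skil and Smad7 are also in the list of receptors, SMADs and feedback. The groups did not overlap for 2 of the 17 (Cx3cr1 and Skil), which is 11.8% against 12.4% of all tested genes. Cx3cr1, the fractalkine receptor of macrophages, had the smallest p of all the lists, with 140 ± 11.2 CPM in WT against 95.97 ± 17.0 CPM in KO (log2 -0.54, SE 0.13), and missed the edgeR threshold (adjusted p = 0.694), while DESeq2 gave an adjusted p of 0.0251.

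In the EGF family, 15 of 21 genes were tested, 5 positive and 10 negative (median -0.10). Of the other ligands, Nrg1 was at 28.7 ± 3.04 CPM in WT against 22.8 ± 2.94 CPM in KO and Ereg at 26.6 ± 2.95 and 24.8 ± 9.88 CPM. The neuregulins had the smallest p values, with log2 values of -0.93 (SE 0.25) for Nrg2 and -0.33 (SE 0.12) for Nrg1 and edgeR adjusted p values of 0.695 and 0.701. The receptor Egfr had 44 counts over the 6 libraries and Erbb4 had 0, while the sheddases Adam10 and Adam17 were at 397 ± 9.55 and 259 ± 15.7 CPM in WT.

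Of the 14 PDGF and VEGF genes 13 were tested, 4 positive and 9 negative (median -0.070). The receptor Pdgfra was at 6.09 ± 1.62 CPM in WT against 5.66 ± 2.67 CPM in KO, and Pdgfrb at 4.99 ± 1.01 and 4.75 ± 1.10 CPM. Vegfa, the main angiogenic ligand, was at 1158 ± 156 and 1320 ± 49.4 CPM (log2 0.19, SE 0.099), and the lymphatic receptor Flt4 was at 1.06 ± 0.525 and 0.726 ± 0.353 CPM (log2 -0.53, SE 0.51). Of 22 neuropilin partners, plexins and semaphorins 20 were tested, 10 positive and 10 negative (median -0.0056). Nrp2, the paralog of Nrp1, was at 288 ± 15.6 CPM in WT against 271 ± 19.6 CPM in KO, and the semaphorin genes Sema4c (log2 -0.40, SE 0.12) and Sema3a (log2 -0.95, SE 0.37, under 2 CPM) had the smallest p values.

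For IGF signalling, 10 of 14 genes were tested, 6 positive and 4 negative (median 0.047). The receptor Igf1r was at 52.5 ± 4.99 CPM in WT against 63.1 ± 11.0 CPM in KO (log2 0.26, SE 0.13), and the adaptor Irs2 at 190.3 ± 21.5 and 244 ± 39.1 CPM (log2 0.36, SE 0.13, edgeR adjusted p = 0.701). For oncostatin M and gp130, 16 of 18 were tested, 7 positive and 9 negative (median -0.05). The oncostatin receptor subunit Osmr was at 1.97 ± 0.351 CPM in WT, while its partner Il6st, which encodes gp130, was at 66.6 ± 2.63 CPM. Other cytokines of the family had log2 values of -0.96 (SE 0.46) for Il6, whose WT SD was large (24.0 ± 15.2 CPM), and -0.23 (SE 0.12) for Lif, and Lifr was at -0.24 (SE 0.13).

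Of 29 matrix and matricellular genes 26 were tested, 15 positive and 11 negative (median 0.026). Spp1, which encodes osteopontin, was at 3332 ± 958 CPM in WT against 4761 ± 952 CPM in KO (log2 0.51, SE 0.22, edgeR adjusted p = 0.713), and the proteoglycan gene Vcan at 82.7 ± 6.49 and 111 ± 31.3 CPM (log2 0.43, SE 0.19). Of 21 matrix receptors 20 were tested, 7 positive and 13 negative (median -0.085). Itga4, a fibronectin-binding integrin subunit, was at 155 ± 24.0 CPM in WT against 114 ± 15.4 CPM in KO (log2 -0.44, SE 0.13), and the hyaluronan receptor Cd44 at 785 ± 47.8 and 906 ± 30.4 CPM (log2 0.21, SE 0.075). Both had an edgeR adjusted p of 0.701.

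**Figure D5:**
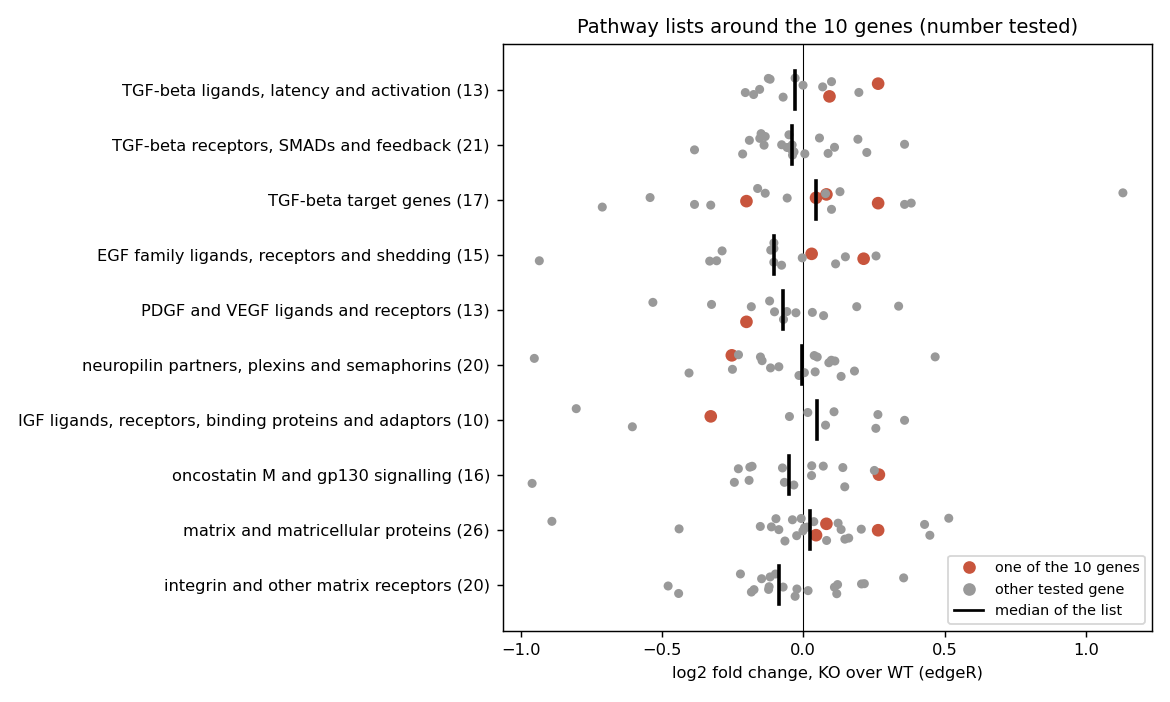
Log2 fold change of KO over WT (horizontal axis) for each tested gene of the 10 pathway lists, with the 10 genes in red and a black line at the median of each list. The medians lie between -0.10 and 0.05.

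The deposited annotation gives the functions the genes share. Of the 10, 6 (Areg, Hbegf, Igf1, Osm, Pdgfb and Tgfb1) carry the term growth factor activity, which 60 of the tested genes (0.494%) carry. Heparin binding is carried by 70 tested genes, 4 of them from this set (Fn1, Hbegf, Nrp1 and Thbs1), and integrin binding by 76, also with 4 (Fn1, Igf1, Tgfbi and Thbs1). The genes of the heparin binding term differed in direction, with log2 values of 0.08, 0.21, -0.25 and 0.26 in that order.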

How the data were processed

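The authors deposited a table of unnormalized read counts for each gene and library. Per the submitters' processing notes, Trimmomatic, HISAT2, Cufflinks, HTSeq and mm10 were used, without roles or versions, and per the labels' protocols libraries were made with a stranded mRNA kit. No source used here gives the annotation or the strand setting of the counting. The filterByExpr filter, with a minimum count of 10 and a minimum total of 15, kept 12136 genes, which hold 99.962% of reads. KO was compared with WT in edgeR 4.0.16 (R 4.3.3) with TMM factors, genotype as the only term and a robust quasi-likelihood test, adjusted over all tested genes by Benjamini-Hochberg. The threshold was 0.05. SE is the log2 value divided by the square root of the F statistic, and the 95% interval uses the moderated degrees of freedom. log2 CPM used a prior count of 2. Marker sums were compared by two-sided exact permutation tests. DESeq2 1.42.0 and limma 3.58.1 were among 16 alternatives, with other scalings, filters, the replicate block and each library left out. The fit was tested on simulated data. Positions and exon lengths are from GENCODE M21 (GRCm38, the assembly of mm10), and promoters are from RefSeq on GRCm38.p6. The text names the 10 genes, Trmt61a, and from each list the 2 other genes with the smallest p, with further list genes and marker genes named after their values were seen. The 10 genes and the lists were chosen with earlier results of these data known.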

Additional observations from a re-analysis of the deposited data

How the results depend on the processing

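None of the 10 genes was called under any of the 16 alternatives, and the smallest adjusted p was 0.277. Log2 values kept their sign in all 16 for 7 genes. The exceptions arose when a library was left out: log2 values then ran from -0.027 to 0.212 for Fn1, from -0.565 to 0.158 for Igf1 and from -0.0442 to 0.15 for Areg (-0.0071 without WT replicate 3 and -0.021 without KO replicate 1), and the cause was not tested. For 6 genes (Tgfbi, Fn1, Igf1, Hbegf, Areg and Nrp1), leaving out 1 library moved the log2 value by over 1.5 times. Over all genes, 2 were called, against 1 with RLE factors, upper-quartile factors, library totals alone, no filter or limma-voom, 0 with a minimum of 1 CPM in 3 libraries, 4 with limma-voom and quality weights and 29 with DESeq2 (8 higher and 21 lower in KO), and from 0 to 5 with a library left out (5 without KO replicate 2). With the replicate block 1 gene was called. Deviations of same-numbered libraries from their group means correlated at -0.0574, -0.0941 and -0.109, and no library correlated best with its own number. The libraries thus showed no likeness by replicate number. Deviations within a group of 3 sum to 0, so these values cannot tell whether the libraries were paired by design. Depth limits Igf1 most, at 85 to 212 counts per library.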

Other observations

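Tested genes with a mean of at least 10 CPM were compared, leaving out symbols that are Gm with a number or end in Rik. Those whose log2 CPM ran most like each of the 10 genes across the 6 libraries were Ptger2 and Mgea5 for Tgfb1, Mgat4b and Dgat2 for Osm, Pqbp1 and Ccdc71 for Pdgfb, Alcam and Cnnm4 for Hbegf, and Arl14ep and Rbfox2 for Areg. They were Khk and St3gal3 for Igf1, Atmin and Etv1 for Fn1, Flna and Nus1 for Thbs1, Kdm3b and Slc23a2 for Tgfbi, and Slc12a7 and Fxr2 for Nrp1. Pearson's r was 0.978 to 0.997 for these 20. Each of the 10 genes had between 34 and 181 genes with r above 0.9, out of 8444 compared (8445 for Igf1). With 6 libraries of 2 genotypes there are few independent points behind each r.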
